A study of Mus musculus with 8 samples.

Results

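Ubiquinone (coenzyme Q) synthesis is described here by 10 mouse genes, Pdss1, Pdss2, Coq2, Coq3, Coq4, Coq5, Coq6, Coq7, Coq8a and Coq9, chosen by name and role from the 54838 genes of the count table. All 10 were found and all 10 passed the filter on low counts, among 10911 genes tested. RNA was profiled by 3′ mRNA sequencing in acute myeloid leukaemia (AML) cells of C57BL/6 background that carry the RUNX1-RUNX1T1 fusion, a core-binding factor fusion found in human AML. The cells had been transplanted into Ptprca recipients, and sorted from bone marrow and spleen after 1 day in which the recipients were given either vehicle (4 samples) or AG636 at 100 mg/kg by mouth, b.i.d. (4 samples). AG636 is an inhibitor of dihydroorotate dehydrogenase (DHODH). Both groups therefore share the fusion, the Ptprca host and the transplant. The compound is the only difference that the labels assign to samples, and whether tissue also differed between the groups cannot be told. The labels describe the recipients as sublethally irradiated, whereas the study's methods give irradiation for the other leukaemia models and not for this one, so whether these hosts were irradiated is unclear. Per the study's results the leukaemia was an established tumour and the sort for this model took cells with high cKit. Its methods give high cKit with low CD11b, and its figure legend gives cKit-positive, CD11b-negative cells. Which sample came from which tissue, the promoter that drives the fusion, and the age and sex of the recipients are not given in the sources used here. The study's legend for this model counts fewer animals than the 4 samples in each group, so samples may share a mouse, and the SDs and p-values below measure the spread between samples, which may be in part technical.

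Ubiquinone is the lipid that carries electrons within the inner mitochondrial membrane. It accepts them from complexes I and II and, by way of the Etfdh product, from the electron transfer flavoprotein. DHODH also passes electrons to it, and can oxidise dihydroorotate for pyrimidine synthesis only while ubiquinone takes them up. Ubiquinone passes its electrons on to complex III. Its isoprenoid tail is built by a synthase of the subunits Pdss1 and Pdss2 from precursors of the mevalonate pathway. Coq2 then joins the tail to 4-hydroxybenzoate, and a complex of Coq3 to Coq9 on the matrix side of the membrane hydroxylates and methylates the ring.

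The libraries held 6120030 to 7162036 counts, of which 1186 to 1478 per sample fell in the 10 genes. Levels are given as CPM, the count scaled to a fixed library size after adjustment by TMM factors, which ranged from 0.961 to 1.05, and the upper limit that a count of 0 allows, 3 counts, stood for 0.434 to 0.479 CPM. In the limma-voom fit over all genes, 1523 genes (14.0%) passed an adjusted p of 0.05, 597 higher (5.47%) and 926 lower (8.49%) with AG636, but scaling to library size alone turned this split to 918 higher and 571 lower. The groups did not overlap for 2427 genes (22.2%), 1020 higher (9.35%) and 1407 lower (12.9%). An unadjusted p under 0.05 was found for 3351 genes (30.7%). These shares are the background for the counts of ubiquinone genes.

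The sort was checked against marker genes listed for this comparison. Of the progenitor markers, the summed level of Kit, Cd34, Myb and Flt3 was 556 to 692 CPM in Vehicle and 622 to 937 CPM in AG636 samples, with Kit at 155 to 177 and 153 to 252 CPM, while Flt3 held at most 5 counts in any sample. Myb was at 388 to 503 CPM in Vehicle and 453 to 717 CPM in AG636 samples. Cd34 was lowest in Vehicle sample 4 (2.43 CPM) and highest in AG636 sample 3 (35.6 CPM). The same samples were lowest and highest for Itga2b (5.63 and 35.9 CPM) and Nkg7 (0.304 and 17.7 CPM), of the megakaryocyte and NK lists. Itgam, which encodes CD11b, held at most 4 counts. Summed markers of T cells (6 genes, up to 3.04 CPM in Vehicle and 8.96 CPM in AG636), NK cells (4 genes, up to 8.30 and 17.7 CPM), B cells (5 genes, up to 10.2 and 17.8 CPM) and monocytes (6 genes, up to 5.63 and 8.38 CPM) were low in both groups, and those of neutrophils (7 genes) were 40.1 to 94.4 CPM and 14.3 to 179 CPM. The 3 megakaryocyte markers summed to 11.1 to 16.9 CPM in Vehicle and 8.78 to 59.8 CPM in AG636 samples, and of them Pf4 had a log2 fold change of 2.89 that missed the threshold (adjusted p = 0.0943, limma). The 7 erythroid markers found of 8 listed, which include haemoglobin genes, summed to 2236 to 6068 CPM in Vehicle and 4675 to 6169 CPM in AG636 samples. Among these markers, Cd79a (log2 fold change 1.83, adjusted p = 0.0266, limma) and Hbb-bt (0.90, adjusted p = 0.0238) rose past the threshold. No listed marker was at 0 in all samples, and the part of other cells in the results below was not tested. In bulk samples such as these, fewer cells that express a gene and less of its RNA in each cell cannot be told apart.

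In AG636 samples the pathway did not move as a block. One of the 10 genes passed the threshold: Pdss1, which was lower with AG636 (1 of 10, against 14.0% of all genes). A further pair differed in opposite directions without passing it, with Coq3 higher and Coq4 lower. The log2 fold changes were positive for 4 genes and negative for 6, with a median of −0.12 against −0.01 over all tested genes, and the median size of the change regardless of sign was 0.30 against 0.23. The summed level of the 10 genes was 209.6, 200.9, 226.7 and 224.9 CPM in Vehicle samples 1 to 4 and 219.9, 214.4, 189.3 and 205.4 CPM in AG636 samples 1 to 4. These sums overlapped between groups and averaged 215.5 ± 12.4 and 207.2 ± 13.4 CPM (SD, n = 4 each).

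**Figure D1:**
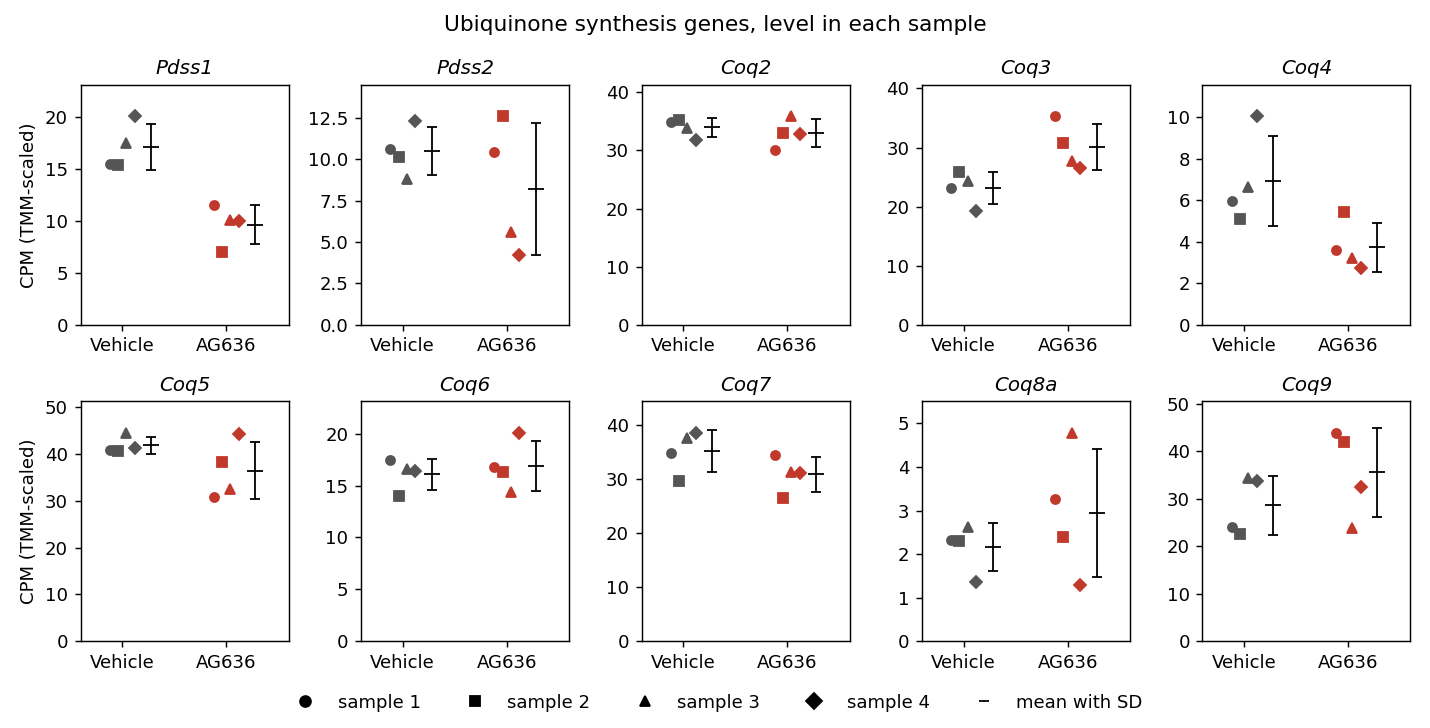
Level of each of the 10 ubiquinone synthesis genes in every sample, in TMM-scaled CPM on a linear axis that starts at 0, with 1 panel a gene, 1 point a sample and the group mean with its SD. Vehicle and AG636 samples are separate in the panels of Pdss1 (lower with AG636) and Coq3 (higher), and overlap in the other 8.

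Pdss1 (ENSMUSG00000026784, chromosome 2, 22895522 to 22940266, plus strand, GRCm38) encodes the catalytic subunit of the synthase that makes the isoprenoid tail. It stood at 15.4, 15.4, 17.5 and 20.1 CPM in Vehicle samples 1 to 4 and at 11.5, 7.02, 10.1 and 9.97 CPM in AG636 samples 1 to 4, on 100 to 132 and 44 to 74 counts. Every AG636 sample was below every Vehicle sample, a separation found for 12.9% of all genes in this direction. The mean fell from 17.1 ± 2.22 to 9.64 ± 1.88 CPM (SD, n = 4 each), to 0.564 of the Vehicle level, with a log2 fold change of −0.83 (SE 0.18, 95% interval −1.22 to −0.44, limma, adjusted p = 0.0134). Leaving out any 1 sample left Pdss1 past the threshold, with adjusted p-values of at most 0.0434, and over all settings tried its log2 fold change lay between −0.92 and −0.69. As a share of the counts of the 10 genes, which does not depend on how libraries are scaled, Pdss1 held 7.92 ± 0.694% in Vehicle (7.37 to 8.93%) and 4.67 ± 0.95% in AG636 samples (3.28 to 5.31%), again without overlap. The last exon of Pdss1 shares 194 bases with Abi1 on the opposite strand, and whether reads were counted by strand is not stated. Abi1 itself differed by 0.05 on the log2 scale (SE 0.09, adjusted p = 0.742, limma).

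Pdss2 (ENSMUSG00000038240, chromosome 10, 43221486 to 43464882, plus strand), the partner subunit of the same synthase, was at 10.6, 10.1, 8.82 and 12.3 CPM in Vehicle samples and at 10.4, 12.6, 5.59 and 4.19 CPM in AG636 samples. AG636 samples 1 and 2 lay within or above the Vehicle range, and samples 3 and 4 lay below it. The log2 fold change of −0.49 (SE 0.31, 95% interval −1.17 to 0.18) did not pass the threshold (adjusted p = 0.303, limma), and its interval in folds, 0.445 to 1.13, takes in the fold of Pdss1. Leaving out 1 sample gave log2 fold changes from −0.74 (without AG636 sample 2) to −0.19 (without AG636 sample 4). The variance of the Pdss2 counts among AG636 samples was 12.6 times that of counting alone, against 1.30 times among Vehicle samples. The count of Pdss1 over that of Pdss2 was 1.45, 1.52, 1.98 and 1.63 in Vehicle samples and 1.10, 0.557, 1.80 and 2.38 in AG636 samples, so AG636 samples 1 and 2 lay below the Vehicle range, sample 3 within it and sample 4 above it.

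Coq2 (ENSMUSG00000029319, chromosome 5, 100654723 to 100675140, minus strand), the prenyltransferase that joins tail and ring, ranged from 31.8 to 35.2 CPM in Vehicle and from 30.01 to 35.9 CPM in AG636 samples. Its means of 34.0 ± 1.55 and 32.9 ± 2.41 CPM (SD, n = 4 each) differed by −0.05 on the log2 scale (SE 0.10, adjusted p = 0.789, limma), and the 95% interval allows folds of 0.834 to 1.12. Of the 10 genes it had the narrowest interval, and a change of the size of that in Pdss1 lies outside it.

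Neither methyltransferase of the ring passed the threshold. Coq3 (ENSMUSG00000028247, chromosome 4, 21879673 to 21912162, plus strand), the O-methyltransferase, was at 23.2, 25.8, 24.3 and 19.3 CPM in Vehicle samples and at 35.3, 30.8, 27.8 and 26.6 CPM in AG636 samples. Every AG636 sample was above every Vehicle sample, as for 9.35% of all genes in this direction. The mean was 1.30 times the Vehicle level (log2 fold change 0.38, SE 0.13, 95% interval 0.08 to 0.67), with an unadjusted p of 0.0169 in limma and an adjusted p of 0.0842, which missed the threshold. Coq3 passed it under scaling to library size alone (0.45, adjusted p = 0.0461), and its adjusted p ranged up to 0.208 over the settings. Of the counts of the 10 genes it held 10.8 ± 1.75% in Vehicle and 14.5 ± 1.27% in AG636 samples, and the highest Vehicle share (12.85%) lay just under the lowest AG636 share (12.95%). Coq5 (ENSMUSG00000041733, chromosome 5, 115279666 to 115296972, plus strand), the C-methyltransferase, was at 40.7 to 44.6 CPM in Vehicle samples and at 30.8, 38.3, 32.6 and 44.2 CPM in AG636 samples. AG636 samples 1 to 3 were below all Vehicle samples and sample 4 was not, and the log2 fold change was −0.21 (SE 0.12, 95% interval −0.48 to 0.06, adjusted p = 0.274, limma).

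Of the hydroxylases and their partner, none passed the threshold in limma, and none of the 3 had an unadjusted p under 0.05. Coq6 (ENSMUSG00000021235, chromosome 12, 84361657 to 84373796, plus strand), a flavin monooxygenase, averaged 16.1 ± 1.49 CPM in Vehicle and 16.9 ± 2.38 CPM in AG636 samples (log2 fold change 0.07, SE 0.14, 95% interval −0.25 to 0.38). Coq7 (ENSMUSG00000030652, chromosome 7, 118509659 to 118533356, minus strand), the di-iron hydroxylase that acts late in ring modification, averaged 35.1 ± 3.94 and 30.8 ± 3.24 CPM (−0.19, SE 0.12, 95% interval −0.45 to 0.08), and all 4 AG636 samples were below the Vehicle mean while the groups overlapped. Coq9 (ENSMUSG00000031782, chromosome 8, 94838321 to 94854895, plus strand), the lipid-binding partner of Coq7, was at 24.0, 22.6, 34.4 and 33.6 CPM in Vehicle samples and at 43.9, 42.0, 23.8 and 32.4 CPM in AG636 samples. AG636 samples 1 and 2 were above all Vehicle samples and samples 3 and 4 lay within their range, and the log2 fold change of 0.30 (SE 0.21, 95% interval −0.17 to 0.76, adjusted p = 0.376, limma) was opposite in sign to that of Coq7. The variance of the Coq9 counts was 8.81 times that of counting in Vehicle and 15.5 times in AG636 samples, the largest of the 10 genes in both groups.

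Coq4 (ENSMUSG00000026798, chromosome 2, 29787493 to 29797935, plus strand), a component of the synthesis complex, was at 5.97, 5.07, 6.65 and 10.04 CPM in Vehicle samples and at 3.58, 5.43, 3.19 and 2.75 CPM in AG636 samples. The groups overlapped through AG636 sample 2, which lay above Vehicle sample 2, and the counts behind these levels were 33 to 66 and 19 to 34. The mean of AG636 samples was 0.539 of that of Vehicle samples, with a log2 fold change of −0.89 (SE 0.29, 95% interval −1.53 to −0.24), an estimate near that of Pdss1 with a wider interval. Its unadjusted p was 0.0115 and its adjusted p 0.0665 in limma, so the difference did not pass the threshold, and it passed with DESeq2 (−0.88, adjusted p = 0.0493). Coq4 shares 921 exon bases with Trub2 on the opposite strand, outside its last exon (Trub2: log2 fold change −0.30, adjusted p = 0.196). Coq8a (ENSMUSG00000026489, chromosome 1, 180165238 to 180199602, minus strand), an atypical kinase of the complex, held 9 to 17 counts in Vehicle and 9 to 30 counts in AG636 samples. The log2 fold change of Coq8a was 0.31 with an SE of 0.41, and folds from 0.659 to 2.33 lie within its 95% interval, so a doubling is not outside it. Leaving out 1 sample moved the value from 0.03 (without AG636 sample 3) to 0.67 (without AG636 sample 4), and the variance of the counts was 0.910 times that of counting in Vehicle and 4.87 times in AG636 samples.

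**Figure D2:**
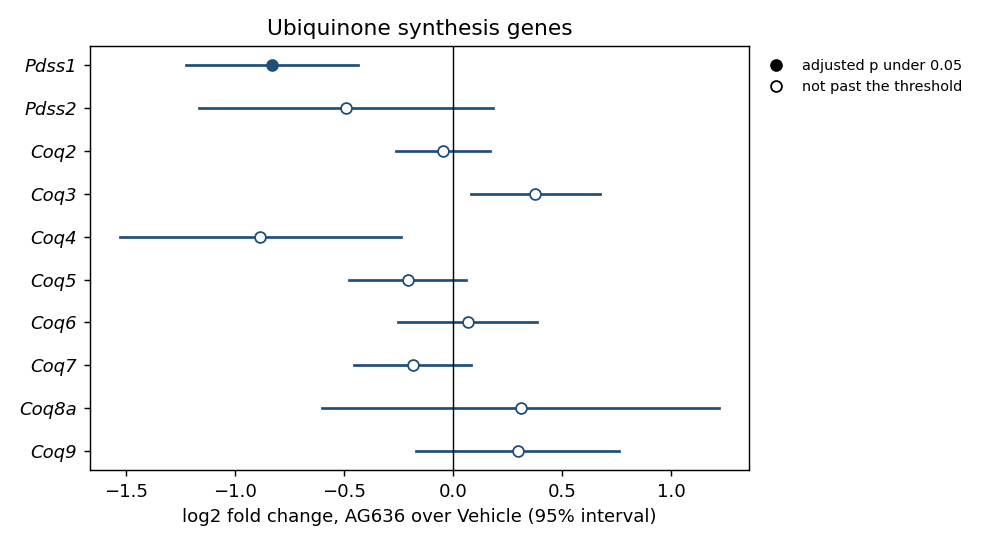
Log2 fold change of AG636 over Vehicle for the 10 ubiquinone synthesis genes with 95% intervals from limma-voom, filled points past an adjusted p of 0.05. Pdss1 alone is filled among the 10, the interval of Coq3 lies above 0 and that of Coq4 below 0 without passing after adjustment, and the interval of Coq8a is the widest.

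Counted over the 10 genes, 3 had an unadjusted p under 0.05 (Pdss1, Coq3 and Coq4), against 30.7% of all genes, and 2 had groups that did not overlap (Pdss1 and Coq3), against 22.2%. These shares are close to the background, and with 10 genes a difference of 1 gene is a step of 10 percentage points. Their precision was also like that of the other genes, with a median SE of 0.16 against 0.15 on the log2 scale.

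**Figure D3:**
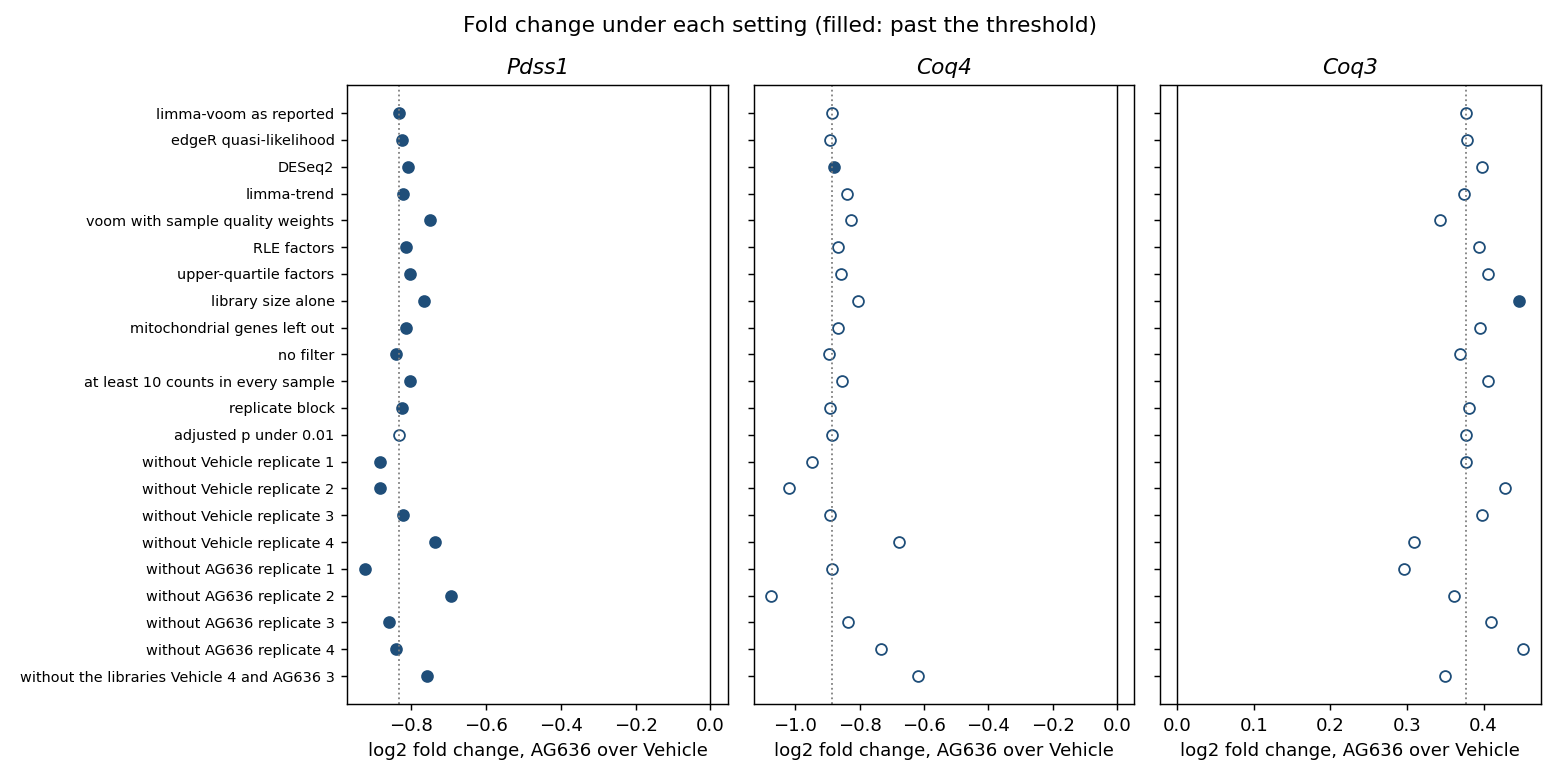
Log2 fold change of AG636 over Vehicle for 3 ubiquinone synthesis genes under each way of processing the counts, filled where the gene passed the threshold of that setting. Pdss1 stays between −0.92 and −0.69 and is open under an adjusted p of 0.01, Coq3 lies between 0.30 and 0.45 and Coq4 between −1.08 and −0.62.

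Sequences before the start sites are shown for the genes with an unadjusted p under 0.05 in limma, of which Pdss1 alone passed after adjustment. RefSeq promoter windows of GRCm38.p6 were used, which matched 9 of the 10 genes in 11 windows (250 bases before to 50 after the start). The stretches below carry no annotated exon. The window of Pdss1 has 201 of its 250 upstream bases within an exon of A130006I12Rik, so 49 bases are shown; capitals mark the E-box CACGTG.
Pdss1, chr2:22895272-22895320, plus strand: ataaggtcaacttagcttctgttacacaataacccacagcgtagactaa
Coq4, chr2:29787343-29787492, plus strand: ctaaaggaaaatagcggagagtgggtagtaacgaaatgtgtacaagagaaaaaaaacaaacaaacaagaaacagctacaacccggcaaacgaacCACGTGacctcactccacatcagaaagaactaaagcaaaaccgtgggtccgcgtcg
Coq3, chr4:21879496-21879645, plus strand: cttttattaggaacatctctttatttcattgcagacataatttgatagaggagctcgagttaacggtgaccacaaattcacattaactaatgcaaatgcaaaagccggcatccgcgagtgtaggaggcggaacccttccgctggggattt
The 250 upstream bases were searched on both strands for CACGTG (E-box), GCGCNTGCG (NRF1), CCGGAAGT (ETS), AANATGGCG (YY1) and CAAGGTCA (ERR), motifs that do not contain each other. CACGTG stood in 1 of the 11 windows, that of Coq4, 56 bases before the start, and in 6.02% of all 32851 windows and 8.48% of those of tested genes. GCGCNTGCG stood in 1 window, that of Coq8a, and in 5.19% and 12% of the same windows. The other 3 motifs were found in none of the 11 windows, and in 2.88%, 1.12% and 1.33% of all windows and 6.72%, 2.44% and 0.884% of those of tested genes. A match describes letters and not a bound site, and the windows of Pdss1 and Coq3 held none of the 5.

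The patterns closest to that of Pdss1 over the 8 samples were sought among 5258 genes whose mean log2 CPM reached 5, by the root mean square difference of log2 CPM centred on each gene's own mean. Dnajb11, a co-chaperone of the endoplasmic reticulum, was nearest (0.0908), with a log2 fold change of −0.66 (adjusted p = 0.0133, limma). Psph, the last enzyme of serine synthesis, came next (0.102), with a log2 fold change of −0.71 (adjusted p = 0.0181), and lost its call without Vehicle sample 3 (adjusted p = 0.0504). Both genes were picked for likeness to Pdss1, the group difference included. Their folds and p-values follow from that choice and are not separate evidence.

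Among the steps that supply the tail, Idi1 had the largest fold of the tested nuclear genes listed around the pathway. Of 12 genes of the mevalonate pathway and prenyl synthesis, all tested, 10 had a negative and 2 a positive log2 fold change (median −0.22), and 2 passed the threshold, both lower. Of all tested genes, 14.0% passed, with 8.49% lower. Idi1, which isomerises isopentenyl diphosphate to the allylic unit that starts each chain, was at 29.0, 20.9, 29.2 and 34.7 CPM in Vehicle samples and at 10.3, 6.54, 13.9 and 13.9 CPM in AG636 samples. The groups did not overlap, as for 12.9% of all genes in this direction. The mean of Idi1 fell from 28.5 ± 5.68 to 11.1 ± 3.51 CPM (log2 fold change −1.38, SE 0.24, adjusted p = 0.00588, limma). Dhdds, which elongates prenyl chains for dolichol rather than ubiquinone, fell from 42.0 ± 1.89 to 33.2 ± 2.05 CPM (−0.34, SE 0.09, adjusted p = 0.0344), but passed in 1 of 8 fits that left out a sample, the one without AG636 sample 2, with adjusted p-values of up to 0.0947 in the others. Dhdds also missed the threshold with library size alone (adjusted p = 0.0747), no filter (0.123) and the replicate block (0.0532). Fdps, the farnesyl diphosphate synthase that makes the primer used by Pdss1 and Pdss2, is named here after its values were seen: it averaged 8.58 ± 2.20 and 4.70 ± 1.53 CPM (−0.87, SE 0.28) with an adjusted p of 0.0633 in limma, short of the threshold. Fdps passed as lower with DESeq2 (adjusted p = 0.0400), the replicate block (0.0397) and without AG636 sample 4 (0.0464). It missed the threshold in the other settings, with adjusted p-values of up to 0.201.

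The genes that hand electrons to ubiquinone differed among themselves. DHODH, the target of AG636, is encoded by Dhodh, which was at 31.9, 31.8, 29.6 and 38.8 CPM in Vehicle samples and at 29.2, 30.5, 26.8 and 32.5 CPM in AG636 samples. The groups overlapped, and the log2 fold change was −0.14 (SE 0.12, 95% interval −0.40 to 0.11, adjusted p = 0.442, limma). The compound inhibits the enzyme, so the transcript level does not check the labels. Of 13 genes whose products pass electrons to ubiquinone, directly or through another protein, 10 were tested. Of the tested genes, 5 had a negative and 5 a positive log2 fold change (median −0.07), and 2 passed, both lower. These 2 of 10 stand against 14.0% of all genes. Sdhd, a membrane subunit of complex II at the ubiquinone site, fell from 83.1 ± 17.5 to 39.2 ± 6.97 CPM (−1.08, SE 0.18, adjusted p = 0.00466). Etfa, part of the electron transfer flavoprotein, fell from 80.4 ± 6.41 to 60.9 ± 9.58 CPM (−0.42, SE 0.12, adjusted p = 0.0470), and passed in 2 of 8 fits that left out a sample, those without AG636 sample 1 or 3, with adjusted p-values of up to 0.130 in the others. With RLE or upper-quartile factors Etfa also missed the threshold (adjusted p = 0.0539 and 0.0684, limma). The same held with library size alone (0.0799), mitochondrial genes left out (0.0541), no filter (0.0642) and at least 10 counts in every sample (0.0572). Sqor, the sulfide:quinone oxidoreductase, is named here after its values were seen: its log2 fold change was 0.42 (SE 0.24, adjusted p = 0.257), and it passed as higher without AG636 sample 3 (0.63, adjusted p = 0.0453) and without both Vehicle sample 4 and AG636 sample 3 (0.83, adjusted p = 0.00861), an alternative chosen after seeing the data.

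Complex III takes electrons from ubiquinol. All 10 of its listed genes were tested, 7 with a negative and 3 with a positive log2 fold change (median −0.23). Of the 10, 2 passed, both lower, against 14.0% of all genes. Uqcr11, a small nuclear-encoded subunit, fell from 265.8 ± 26.7 to 174.8 ± 11.8 CPM (−0.60, SE 0.09, adjusted p = 0.00387, limma). mt-Cytb, the cytochrome b gene of the mitochondrial genome, whose counts may take in reads of nuclear copies, fell from 8977 ± 240.1 to 1866 ± 1013 CPM (−2.41, SE 0.30, adjusted p = 0.00178).

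**Figure D4:**
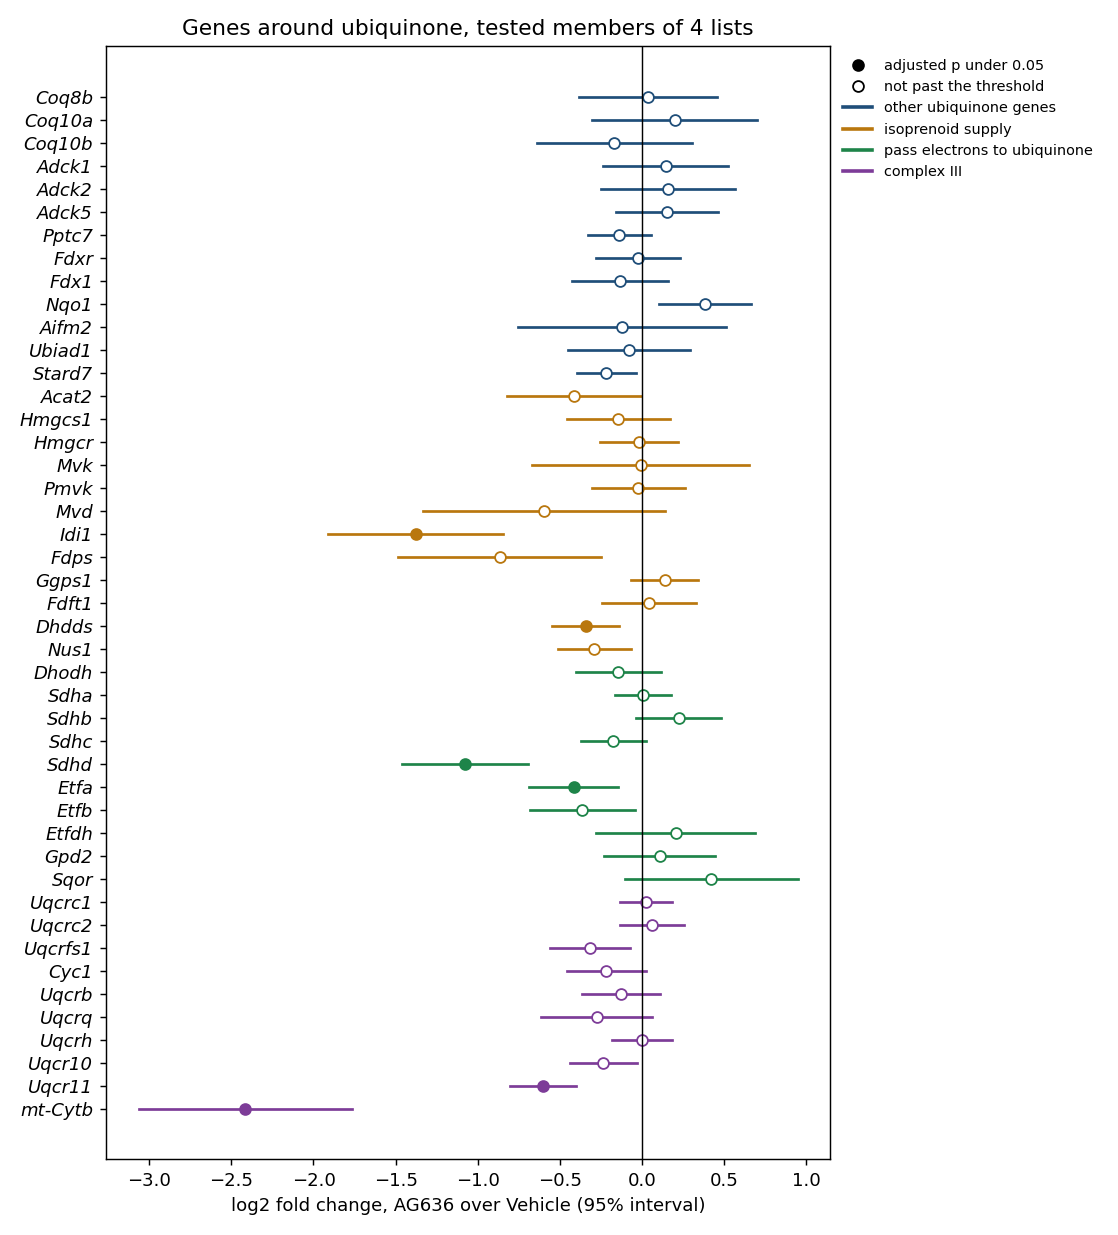
Log2 fold change of AG636 over Vehicle with 95% intervals from limma-voom for the genes listed around ubiquinone, coloured by list, filled points past an adjusted p of 0.05. The filled points (Idi1, Dhdds, Sdhd, Etfa, Uqcr11 and mt-Cytb) all lie below 0, and mt-Cytb is farthest from it. Of the tested genes, 0 of 13 other ubiquinone genes and 2 of 12 for isoprenoid supply are filled. So are 2 of 10 that pass electrons to ubiquinone and 2 of 10 of complex III, against 14.0% of all genes.

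Of 15 further genes tied to ubiquinone (regulators, chaperones and reductases), 13 were tested, 6 with a positive and 7 with a negative log2 fold change (median −0.02), and none passed in limma, where Nqo1 and Stard7 had an unadjusted p under 0.05. Of all tested genes, 14.0% passed and 30.7% had an unadjusted p under 0.05. DESeq2 called 1 of the 13 and edgeR 0. Coq8b, the paralogue of Coq8a, averaged 7.29 ± 1.08 and 7.53 ± 1.08 CPM (log2 fold change 0.04, 95% interval −0.38 to 0.46). The ubiquinone-binding proteins Coq10a (5.16 ± 0.808 and 5.99 ± 1.33 CPM) and Coq10b (13.5 ± 3.50 and 11.9 ± 2.56 CPM) had log2 fold changes of 0.20 and −0.17 with overlapping groups. Nqo1, a quinone reductase named here after its values were seen, averaged 35.4 ± 5.02 and 46.1 ± 4.72 CPM (0.39, SE 0.13, adjusted p = 0.0661, limma). It was higher in all 4 AG636 samples than in any Vehicle sample, as for 9.35% of all genes in this direction. Nqo1 passed the threshold with DESeq2 (adjusted p = 0.0336), library size alone (0.0300), at least 10 counts in every sample (0.0490), the replicate block (0.0484) and without AG636 sample 4 (0.0449), and missed it in the other settings, with adjusted p-values of up to 0.152.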

How the data were processed

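The authors deposited raw counts of reads per gene. Reads from QuantSeq 3′ libraries were trimmed with cutadapt, mapped to mm10 (GRCm38) with HISAT2 and counted with featureCounts of Subread. The submitters' processing notes name cutadapt 1.9.1, HISAT2 2.0.4 and Subread 1.5.0-p3, and the study's methods name other versions of cutadapt and Subread. How strand and reads with several matches were treated is not given in the sources used here, so counts of overlapping genes are uncertain. Such 3′ counts depend little on transcript length.

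Samples were grouped by title. Genes were kept by filterByExpr (minimum count 10), scaled by TMM and compared by voom and limma 3.58.1 (with edgeR 4.0.16 under R 4.3.3), the study's choice of test, with group as the only term. Tests were two-sided, with Benjamini-Hochberg adjustment over all tested genes and a threshold of 0.05. The fit was tested on simulated counts. No pair of replicates agreed within sampling noise. Symbols came from a name table, which left 115 genes unnamed. Floors cover counting error only.

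The members and lists were chosen with earlier results of these data known. Named are all 10 members, Dhodh, Coq8b, Coq10a and Coq10b, genes of the other lists past the threshold (at most 6 a list), and the 2 genes with the pattern nearest to each member past the threshold. Alternatives were limma-trend, DESeq2 1.42.0, edgeR's quasi-likelihood fit, library size alone, upper-quartile or RLE factors, weights for sample quality, mitochondrial genes left out, no filter, at least 10 counts in every sample, a replicate block, an adjusted p under 0.01, and each sample left out in turn.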

Additional observations from a re-analysis of the deposited data

Results flagged for a closer look

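Among 40 groups of 4 samples examined for a sample far from the others, 1 stood out, where chance at 1 in 20 would give about 2. In Vehicle sample 4, Uqcr11 of complex III was at 8.26 log2 CPM, while the other 3 Vehicle samples lay between 7.98 and 7.99. The value is higher, so it widens the difference from AG636 samples. Uqcr11 passed the threshold without that sample too, and its adjusted p was at most 0.0158 in the fits that left out 1 sample.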

How the results depend on the processing

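Of the 10 ubiquinone synthesis genes, 2 passed with DESeq2 (Pdss1 and Coq4), 2 with library size alone (Pdss1 and Coq3) and 0 under an adjusted p of 0.01 in limma, where 435 of all genes passed. Leaving out each sample in turn left 1 of the 10, Pdss1, past the threshold and 688 to 1706 of all genes, the lowest without Vehicle sample 3 and the highest without AG636 sample 3. DESeq2 called 1964 genes (955 higher, 1009 lower) and edgeR 1612 (694 higher, 918 lower). The median log2 fold change of all genes stayed between −0.01 and 0.06. Same-numbered samples did not deviate together (correlations of −0.14 to 0.20, and 3 of 8 samples correlated best with their own number), so the numbers are not taken as pairs. With the replicate block 1446 genes passed (616 higher, 830 lower), and Pdss1 kept its call (−0.82, adjusted p = 0.0214). Signs turned for genes short of the threshold: Coq2 with library size alone (0.024), Coq8b with quality weights (−0.0018), and, leaving out 1 sample, Coq6 (−0.011 to 0.14, negative without Vehicle 2 or AG636 4), Coq10b (−0.28 to 0.012, positive without Vehicle 4) and Coq8b (−0.033 to 0.16, negative without AG636 2). Without both Vehicle 4 and AG636 3, chosen after seeing the data, 1545 genes passed, Pdss1 was at −0.76 (adjusted p = 0.0382), and Coq8a (−0.14), Coq8b (−0.022) and Dhodh (0.0062) turned. The cause of these changes was not tested. Coq8a could not be fitted with at least 10 counts in every sample, and it held 132 counts over 8 samples.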

Other observations

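Hpdl, whose product acts on the route to 4-hydroxybenzoate, the head-group precursor of ubiquinone, had too few counts to be tested. It held 5, 9, 7 and 5 counts in Vehicle samples 1 to 4 and 1, 4, 1 and 1 in AG636 samples 1 to 4. Every AG636 sample was below every Vehicle sample, a separation found for 12.9% of the tested genes in this direction. Most of the AG636 counts are at or under the 3 counts that a count of 0 allows. Hpdl is named after its values were seen. Fdx2, a ferredoxin tied to the Coq6 step, was listed at 0 counts in all samples. It shares 516 and 1034 exon bases on the same strand with Gm49373 and Gm38431, which were also at 0 counts, and how reads in shared bases were counted is not stated.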
